A study of Mus musculus with 10 samples.

Results

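De novo purine synthesis builds inosine monophosphate (IMP) on a ribose phosphate and turns it into AMP and GMP, the precursors of ATP, GTP and the purine bases of DNA and RNA. The 10 genes described here encode its enzymes and were taken by symbol from the count files: Prps1, Prps2, Ppat, Gart, Pfas, Paics, Adsl, Atic, Impdh2 and Gmps, 10 of 24391 genes listed. They were read in 10 RNA-seq libraries from 5 mouse cell lines of small cell lung cancer (SCLC), a tumour of neuroendocrine cells. All lines carry altered Rb and p53 genes, a MYCN transgene behind a tetracycline-responsive promoter (TRE) and the doxycycline-dependent activator rtTA behind a loxP-stop-loxP cassette. Each line, G4314, G9351, G9488, G9529 and G9577, gave 1 library from cells grown in doxycycline (MYCN on) and 1 library from cells kept without doxycycline for 4 days (MYCN off). Because no cells without the transgene were given doxycycline, an effect of the drug itself cannot be told apart from that of MYCN. The labels do not say which cells the cassette was opened in or whether cultures were repeated, so p-values measure the spread among these 5 lines.

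Of the 10 genes, 8 rose with MYCN on, 2 did not pass the test and 0 fell. The rises ran from 1.77-fold for Gmps to 3.01-fold for Prps1, the fitted median over the 10 genes was 2.24-fold (log2 1.16, against -0.08 over all genes tested), and 7 rose at least 2-fold. The exceptions were Prps2, with no shared direction among lines, and Paics, which was higher with MYCN on in 4 lines and lower in G9577. For comparison, 15.3% of the 12835 genes tested were called higher, 15.6% lower and 31.0% in either direction, and 5.93% were called higher and at least 2-fold. A gene was called where its adjusted p (Benjamini-Hochberg over those 12835 genes) in edgeR's quasi-likelihood test, blocked by cell line and two-sided, was under 0.05, and adjusted p-values come from this fit unless another is named. All 5 lines moved upward for 8 of the 10 genes, against 20.9% of the genes tested. At an unadjusted p below 0.05, 9 of the 10 genes were higher and 0 lower. The share of all genes at that threshold was not counted exactly. Paics, the last of the 9 (edgeR unadjusted p = 0.041), ranked 5443 by p among the 12835 genes tested. At least 5443 genes therefore passed it in either direction. DESeq2 called 8 of the 10 higher and 0 lower, beside 2283 higher and 2997 lower of the 12835 genes tested. In bulk RNA a lower share of cells that express a gene and less RNA per cell cannot be told apart, and with no spike-in every level is relative to its library.

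The pathway starts from phosphoribosyl pyrophosphate (PRPP), made from ribose 5-phosphate and ATP. The purine ring is then built atom by atom on PRPP from glutamine, glycine, aspartate, carbon dioxide and formyl groups carried by folate, and IMP is the branch point to AMP and GMP. Several of the human genes are known targets of MYC proteins, and dividing cells depend on this route beside the salvage of free bases.

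The libraries held 9586465 to 11960074 counts with MYCN on and 9928420 to 11123998 with MYCN off, and the lowest count of any of the 10 genes in a library was 95, for Impdh2. Mycn itself stood at 737 ± 212 CPM in the MYCN-on libraries, against 118 ± 66.5 CPM in the MYCN-off libraries (SD over n = 5 lines), higher in 5 of 5 lines (log2 change 2.86, SE 0.38, adjusted p = 0.00421), from 3.04-fold in G4314 to 17.9-fold in G9351, and since the labels name no species for the MYCN transgene its transcripts may be counted in part. One line went against its label. The summed level of 12 neuroendocrine markers (among them Chga, Syp and Insm1) was 224 CPM in the on state and 185 CPM in the off state of G9577, against 3615 to 4432 CPM in the on state and 5661 to 7566 CPM in the off state of the other 4 lines, and in its libraries 2 of the 12 were at 0 with MYCN on (Dll3 and Scg2) and 1 with MYCN off (Dll3). Its 10 mesenchymal markers (among them Vim, Fn1 and Acta2; Thy1 alone was at 0) summed to 5351 CPM in the on state and 20927 CPM in the off state, against 4.28 to 24.7 CPM and 3.52 to 12.8 CPM in the other 4. The 8 immune and endothelial markers summed to 38.8 CPM in the on state and 136 CPM in the off state of G9577, mostly Kdr, with Ptprc, Adgre1, Cd3e and Cdh5 among those at 0 in both, and to at most 6.65 CPM in any library of the other 4 lines. Over all lines 7 of the 12 neuroendocrine markers fell and 0 rose with MYCN on (0 higher at an unadjusted p below 0.05 and by DESeq2), and the part of these markers in the results was not tested. Without G9577, 9 of the 10 purine genes were called higher, with a median log2 change of 0.98. That fit called 2244 of 12925 genes tested higher. Results that change without G9577 are given both ways.

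The promoters of the 4 genes on which the sequence comparison turns are shown, each from 250 bases before to 50 bases from the annotated start site on, from RefSeq on GRCm38.p6, which is a later build than the mm9 of the counts. Capitals mark the palindromic E-box CACGTG, a DNA word bound by MYC and MAX. Paics, Atic and Impdh2 are shown because their windows hold it, and Ppat because its start overlaps that of Paics on the other strand.
Paics (GRCm38.p6, chr5:76951052-76951351, plus strand): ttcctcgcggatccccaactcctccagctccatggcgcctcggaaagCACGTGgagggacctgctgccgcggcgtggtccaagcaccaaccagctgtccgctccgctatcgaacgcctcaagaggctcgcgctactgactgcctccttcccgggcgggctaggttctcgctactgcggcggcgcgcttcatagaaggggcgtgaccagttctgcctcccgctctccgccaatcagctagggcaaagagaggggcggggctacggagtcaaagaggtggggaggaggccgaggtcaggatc
Ppat (GRCm38.p6, chr5:76951529-76951828, minus strand): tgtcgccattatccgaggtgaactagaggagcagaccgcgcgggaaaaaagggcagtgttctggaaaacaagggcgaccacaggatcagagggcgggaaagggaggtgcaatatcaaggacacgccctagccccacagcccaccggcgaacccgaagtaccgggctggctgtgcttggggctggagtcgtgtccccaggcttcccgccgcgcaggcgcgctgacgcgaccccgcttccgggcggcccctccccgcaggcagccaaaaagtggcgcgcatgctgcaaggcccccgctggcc
Atic (GRCm38.p6, chr1:71556906-71557205, plus strand): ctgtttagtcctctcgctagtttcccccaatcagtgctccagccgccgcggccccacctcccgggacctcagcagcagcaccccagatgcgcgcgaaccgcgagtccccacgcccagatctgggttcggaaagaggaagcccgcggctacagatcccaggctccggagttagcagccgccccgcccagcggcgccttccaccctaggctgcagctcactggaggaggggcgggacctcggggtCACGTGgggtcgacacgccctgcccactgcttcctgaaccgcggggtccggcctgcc
Impdh2 (GRCm38.p6, chr9:108560186-108560485, plus strand): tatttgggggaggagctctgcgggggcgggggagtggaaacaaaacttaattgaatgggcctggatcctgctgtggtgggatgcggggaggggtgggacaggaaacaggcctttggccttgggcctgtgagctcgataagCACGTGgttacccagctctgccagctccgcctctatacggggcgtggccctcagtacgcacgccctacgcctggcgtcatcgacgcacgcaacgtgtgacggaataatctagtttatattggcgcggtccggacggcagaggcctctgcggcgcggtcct
A promoter window was found for 9 of the 10 genes, and Pfas was not among them. The E-box was present in 3 of the 9, with its first base at -203 in Paics, -7 in Atic and -110 in Impdh2, counted from the start site as 0. It occurs in 7.17% of all 32534 windows of the same length and in 9.85% of the 12489 windows of genes tested. The variant CACGCG, searched on both strands, was in 0 of the 9 and in 17.6% of windows of genes tested, and the core NRF1 motif was in 0 of the 9 and in 2.04%. No matches of different motifs overlapped, since the E-box alone occurred in the 9 windows. Of the 3 genes with the E-box, Atic and Impdh2 rose and Paics did not pass the test, and of the 6 with a window but no E-box, Prps1, Ppat, Gart, Adsl and Gmps rose and Prps2 did not pass. Without G9577 Paics was called higher as well (adjusted p = 0.00865), and Prps2 still did not pass (adjusted p = 0.951). The E-box of Paics lies downstream of the Ppat start site, beyond the Ppat window, so the place of Ppat here depends on where its window ends.

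**Figure D1:**
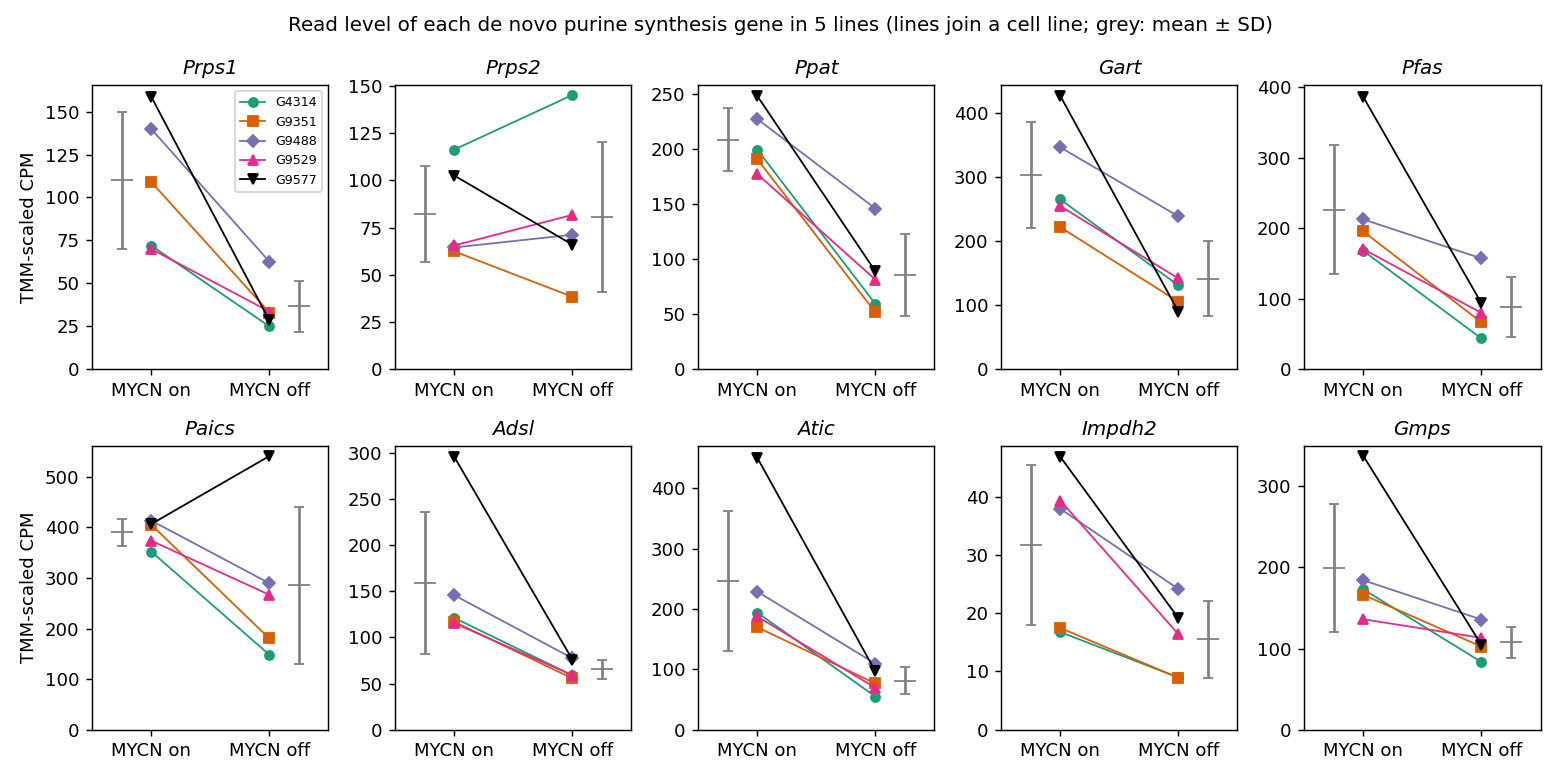
TMM-scaled CPM (y axis) of the 10 genes in each library, MYCN on at the left and MYCN off at the right of each panel. Each joined pair of points is 1 cell line and grey bars are mean ± SD over 5 lines; all 5 joins slope down to MYCN off in 8 panels, Prps2 has 3 that slope up and Paics has 1, that of G9577.

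Prps1 and Prps2 encode the paralogous PRPP synthetases that make the sugar substrate of the pathway. Levels below are TMM-scaled CPM, the count of a gene as a share of its library after edgeR's TMM scaling. Prps1 (mm9 chromosome X, 136991142 to 137010679, plus strand, 1975 exon bases) stood with MYCN on at 71.9 CPM in G4314, 109 in G9351, 140.0 in G9488, 69.9 in G9529 and 159 in G9577. With MYCN off its levels were 24.8 CPM in G4314, 32.9 in G9351, 62.6 in G9488, 33.5 in G9529 and 28.3 in G9577. The lowest library with MYCN on lay above the highest with MYCN off, a separation seen in the higher direction for 6.35% of all genes tested. Prps1 had the largest fitted change of the 10 genes, 3.01-fold (log2 change 1.59, SE 0.22, adjusted p = 0.00453), and its smallest change in a line was log2 1.06 in G9529.

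Prps2 (mm9 chromosome X, 163784265 to 163820631, minus strand, 3638 exon bases) stood with MYCN on at 116 CPM in G4314, 62.4 in G9351, 64.4 in G9488, 65.5 in G9529 and 103 in G9577, and with MYCN off at 145 CPM in G4314, 38.2 in G9351, 71.2 in G9488, 81.7 in G9529 and 65.9 in G9577. It was higher with MYCN on in G9351 and G9577 and lower in G4314, G9488 and G9529, and the groups overlapped. The fitted log2 change was 0.11 (SE 0.20, adjusted p = 0.697). It was -0.05 without G9351 and -0.02 without G9577. The change of Prps1 exceeded that of Prps2 in 5 of 5 lines, by log2 1.48 ± 0.36 on average (SD, n = 5; range 1.02 to 1.85), with p = 0.0625 in a two-sided exact sign-flip permutation test, the smallest p that 5 lines allow, and 0.0938 adjusted over the 3 pairs of genes compared. Per kilobase of exon, the ratio of the Prps1 level to the Prps2 level was 1.14 in G4314, 3.22 in G9351, 4.00 in G9488, 1.97 in G9529 and 2.85 in G9577 with MYCN on, against 0.315 in G4314, 1.58 in G9351, 1.62 in G9488, 0.754 in G9529 and 0.790 in G9577 with MYCN off. With MYCN on Prps1 was the more abundant transcript of the pair in every line, and with MYCN off it was so in G9351 and G9488.

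Reads that map to several places were not counted, so part of Prps1 may be missing: 9.93% of the 50-base words of its GENCODE transcripts also occur in Prps1l3, a near copy on chromosome 12, against 0.105% of the words of Prps2 that occur in any other gene. Prps1l3, which shares 187 exon bases with Mipol1, stood at 119.7 ± 22.7 CPM in the MYCN-on libraries, against 86.0 ± 25.04 CPM in the MYCN-off libraries (SD over n = 5 lines) and did not pass the test (log2 change 0.51, SE 0.19, adjusted p = 0.0782).

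Ppat encodes the amidotransferase that takes PRPP into the pathway, the committed and feedback-inhibited step. It lies on mm9 chromosome 5, 77342274 to 77380603, minus strand, 4008 exon bases. With MYCN on it stood at 199.7 CPM in G4314, 191 in G9351, 228 in G9488, 177 in G9529 and 249 in G9577, and with MYCN off at 59.1 CPM in G4314, 51.6 in G9351, 146 in G9488, 81.3 in G9529 and 88.8 in G9577. The groups did not overlap, and Ppat rose 2.60-fold (log2 change 1.38, SE 0.20, adjusted p = 0.00485). Its levels with MYCN on were close among lines, with the highest 1.40 times the lowest, against 2.83 times with MYCN off.

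Gart (mm9 chromosome 16, 91621642 to 91647217, minus strand, 3327 exon bases), a single polypeptide with the glycinamide ribonucleotide synthetase, formyltransferase and aminoimidazole ribonucleotide synthetase activities, stood with MYCN on at 265 CPM in G4314, 221 in G9351, 346 in G9488, 254 in G9529 and 426 in G9577, and with MYCN off at 131 CPM in G4314, 105 in G9351, 238 in G9488, 141 in G9529 and 89.4 in G9577. It was higher in all 5 lines, but G9488 with MYCN off lay above G9351 with MYCN on, so the groups overlapped. Gart rose 2.20-fold (log2 change 1.14, SE 0.24, adjusted p = 0.0141). The call was lost without G4314 (adjusted p = 0.0532) and without G9351 (adjusted p = 0.0536), where the fold was 2.22 and 2.20. Of its 50-base words 15.5% recur, on either strand, in transcripts of Gm15964. The position of that gene was not compared, so whether reads of Gart were lost is not known.

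Pfas (mm9 chromosome 11, 68799203 to 68821962, minus strand, 6369 exon bases), which uses glutamine to convert formylglycinamide ribonucleotide to its amidine, stood with MYCN on at 168 CPM in G4314, 195 in G9351, 212 in G9488, 170.1 in G9529 and 386 in G9577, and with MYCN off at 43.2 CPM in G4314, 66.2 in G9351, 157 in G9488, 79.5 in G9529 and 93.3 in G9577. The groups did not overlap, though G9488 rose least, by log2 0.44, and G9577 most, by 2.05. Pfas rose 2.68-fold (log2 change 1.42, SE 0.25, adjusted p = 0.00804). It shares 8 exon bases with Mir3062.

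Paics encodes a bifunctional enzyme, the carboxylase and the succinocarboxamide synthetase that follow ring closure. It lies on mm9 chromosome 5, 77380436 to 77396531, plus strand, 2379 exon bases. With MYCN on its levels were 352 CPM in G4314, 405 in G9351, 414 in G9488, 374 in G9529 and 407 in G9577, and with MYCN off 148 CPM in G4314, 180.3 in G9351, 289.7 in G9488, 267 in G9529 and 541 in G9577. The levels with MYCN on were within 1.17-fold of one another, the narrowest range of the 10 genes, and with MYCN off they spanned 3.65-fold, with G9577 highest of all 10 libraries. Paics missed the threshold (log2 change 0.61, SE 0.24, adjusted p = 0.0967; unadjusted p = 0.041). Without G9577 it rose 1.82-fold (log2 change 0.86, adjusted p = 0.00865), and without any other line it stayed above the threshold.

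Ppat and Paics lie on opposite strands with overlapping 5′ ends and share 168 exon bases in the mm9 gene models, and reads in the shared bases were counted for neither gene. In RefSeq on GRCm38.p6 their start sites are 276 bases apart. Ppat changed more than Paics in 5 of 5 lines, by log2 0.78 ± 0.67 (SD, n = 5), with p = 0.0625 in the exact sign-flip permutation test, the smallest possible, and 0.0938 adjusted over the 3 pairs. The difference was 0.13 in G9488 and 1.89 in G9577, and its mean without G9577 was 0.50. Per kilobase, the level of Ppat relative to that of Paics was 0.336 in G4314, 0.280 in G9351, 0.327 in G9488, 0.282 in G9529 and 0.363 in G9577 with MYCN on, against 0.237 in G4314, 0.170 in G9351, 0.299 in G9488, 0.181 in G9529 and 0.0974 in G9577 with MYCN off. The lowest of these 10 ratios was that of G9577 with MYCN off.

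Adsl (mm9 chromosome 15, 80778920 to 80801377, plus strand, 3712 exon bases) encodes adenylosuccinate lyase, which acts both before IMP and again on the branch to AMP. Its levels with MYCN on were 121 CPM in G4314, 117 in G9351, 146 in G9488, 115 in G9529 and 296 in G9577, against 58.9 CPM in G4314, 55.6 in G9351, 77.5 in G9488, 59.1 in G9529 and 75.9 in G9577 with MYCN off. The groups did not overlap and the gene rose 2.28-fold (log2 change 1.19, SE 0.18, adjusted p = 0.00524). In 4 lines its change lay between log2 0.91 and 1.07, and in G9577 it was 1.96.

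Atic (mm9 chromosome 1, 71603730 to 71625977, plus strand, 2611 exon bases) encodes the formyltransferase and cyclohydrolase that close the second ring to give IMP. With MYCN on it stood at 194 CPM in G4314, 169.9 in G9351, 229 in G9488, 188 in G9529 and 451 in G9577, and with MYCN off at 55.0 CPM in G4314, 76.6 in G9351, 109 in G9488, 69.4 in G9529 and 96.6 in G9577. No library with MYCN off reached the lowest with MYCN on, and Atic rose 2.90-fold (log2 change 1.54, SE 0.19, adjusted p = 0.00376), the smallest adjusted p of the 10 genes. Its E-box is the one nearest to a start site among the windows printed above.

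On the branch to GMP, Impdh2 (mm9 chromosome 9, 108462832 to 108467897, plus strand, 1625 exon bases) encodes IMP dehydrogenase 2, the rate-limiting enzyme of GMP synthesis. With MYCN on it stood at 16.8 CPM in G4314, 17.5 in G9351, 37.9 in G9488, 39.3 in G9529 and 46.9 in G9577, and with MYCN off at 8.97 CPM in G4314, 8.90 in G9351, 24.2 in G9488, 16.4 in G9529 and 19.1 in G9577. Every line rose, by between log2 0.65 and 1.28, the narrowest range of changes of the 10 genes. G9488, G9529 and G9577 had more Impdh2 than the other 2 lines in each state, and G9488 and G9577 with MYCN off lay above G4314 and G9351 with MYCN on, so the groups overlapped. The fitted rise was 2.02-fold (log2 change 1.02, SE 0.17, adjusted p = 0.00722). Its low level has a limit of counting: 39.3% of its 50-base words also occur in the pseudogene Impdh2-ps.

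Gmps (mm9 chromosome 3, 63780065 to 63823000, plus strand, 4567 exon bases) encodes GMP synthetase, which aminates xanthosine monophosphate. With MYCN on it stood at 173 CPM in G4314, 166 in G9351, 184 in G9488, 136 in G9529 and 337 in G9577, against 83.4 CPM in G4314, 102 in G9351, 136 in G9488, 113 in G9529 and 105 in G9577 with MYCN off. The highest library with MYCN off and the lowest with MYCN on were nearly level, but the groups did not overlap. It rose 1.77-fold (log2 change 0.83, SE 0.21, adjusted p = 0.026), the smallest called change of the set, and the call was lost without G4314 (adjusted p = 0.0972) and without G9351 (adjusted p = 0.0753).

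**Figure D2:**
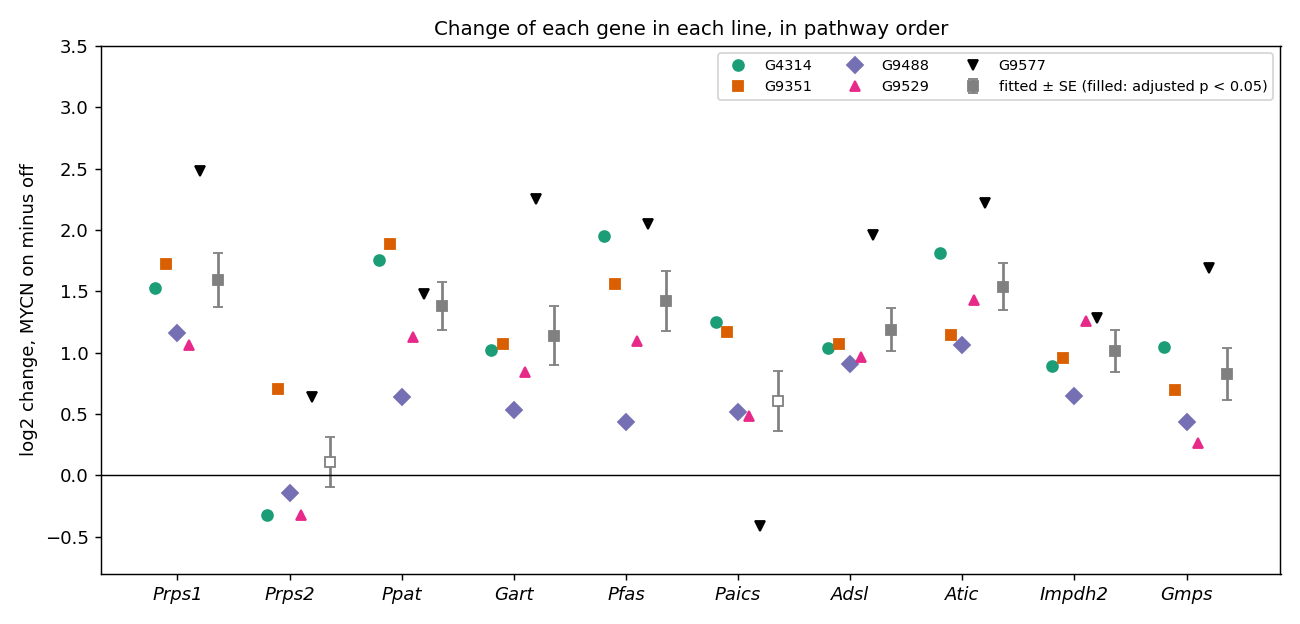
Log2 change with MYCN on minus off (y axis) of each gene in each of 5 lines (coloured points), in pathway order, with the fitted change ± SE as a grey square, filled where called. G9577 has the highest change for Prps1, Gart, Pfas, Adsl, Atic, Impdh2 and Gmps and the lowest for Paics, at -0.41.

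Per kilobase of exon, which allows levels of different genes to be compared, Paics was the most abundant of the 10 transcripts in both states, at 164 ± 11.04 CPM per kilobase with MYCN on and 119.9 ± 65.0 with MYCN off (SD, n = 5 lines each). Atic and Gart followed with MYCN on, at 94.4 ± 44.6 and 91.0 ± 24.97, a difference within the spread of the lines. Prps1, Ppat, Gmps, Adsl and Pfas lay between 35.5 and 55.7 CPM per kilobase with MYCN on, neighbours within their SDs, and Prps2 and Impdh2 had the lowest counted levels, at 22.6 ± 6.97 and 19.5 ± 8.44. With MYCN off Gart followed Paics at 42.4 ± 17.5 and Atic next at 31.2 ± 8.31, Impdh2 was lowest at 9.54 ± 4.07, and Prps2 ranked 5 of 10 in place of 9. These ranks hold for counted reads: 39.3% of the 50-base words of Impdh2 also occur in another gene, against 0.105% of those of Prps2, so the place of Impdh2 is uncertain.

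The lines differed in how far the set moved. The median change of the 10 genes was log2 1.15 in G4314, 1.11 in G9351, 0.59 in G9488, 1.01 in G9529 and 1.82 in G9577, where the median over all genes tested lay between -0.23 in G9577 and 0.00 in G9351. Their summed level was 2860.5 CPM with MYCN on against 1203 CPM with MYCN off in G9577, 2001 against 1312 CPM in G9488, and 1678 against 757 CPM in G4314. In G9351 the sums were 1655 CPM with MYCN on against 718 CPM with MYCN off, and in G9529 1589.7 CPM with MYCN on against 942 CPM with MYCN off. The set rose least in G9488, the line with the highest sum with MYCN off, and most in G9577, which had the next highest. With MYCN off G9488 had the highest level of every gene but Prps2, highest in G4314, and Paics, highest in G9577.

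Cell cycle genes moved in some of these lines, and their part in the result was not tested. The median change of 12 cell cycle genes, among them Top2a, Aurkb, Bub1 and Cdk1, was log2 2.56 in G4314, 1.64 in G9351, 0.39 in G9488, -0.09 in G9529 and 3.25 in G9577. The cell cycle and purine medians were both highest in G9577, and the lowest values of both were in G9488 and G9529. In G9529, 9 of the 10 purine genes were higher with MYCN on, all but Prps2 and Gmps by log2 0.486 or more. The purine median there was log2 1.01, against -0.02 over all genes tested. Of the 12 genes 4 rose (Bub1 4.15-fold, Aurkb 3.79-fold, Cdk1 2.80-fold, Top2a 2.70-fold) and 0 fell, with 10 higher and 0 lower at an unadjusted p below 0.05 and 10 called higher and 0 lower by DESeq2. Of all 12835 genes tested, at least 5443 passed that unadjusted threshold in either direction, and DESeq2 called 5280. With a line left out, edgeR called 0 of the 12 higher without G4314 and 0 without G9351, 2 without G9488, 2 without G9577 and 8 without G9529. Where the calls were lost the folds were 3.19 without G4314 and 3.84 without G9351 for Bub1, and 3.06 and 3.47 for Aurkb, in fits that called 1768 and 1729 genes of all in place of 3973.

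**Figure D3:**
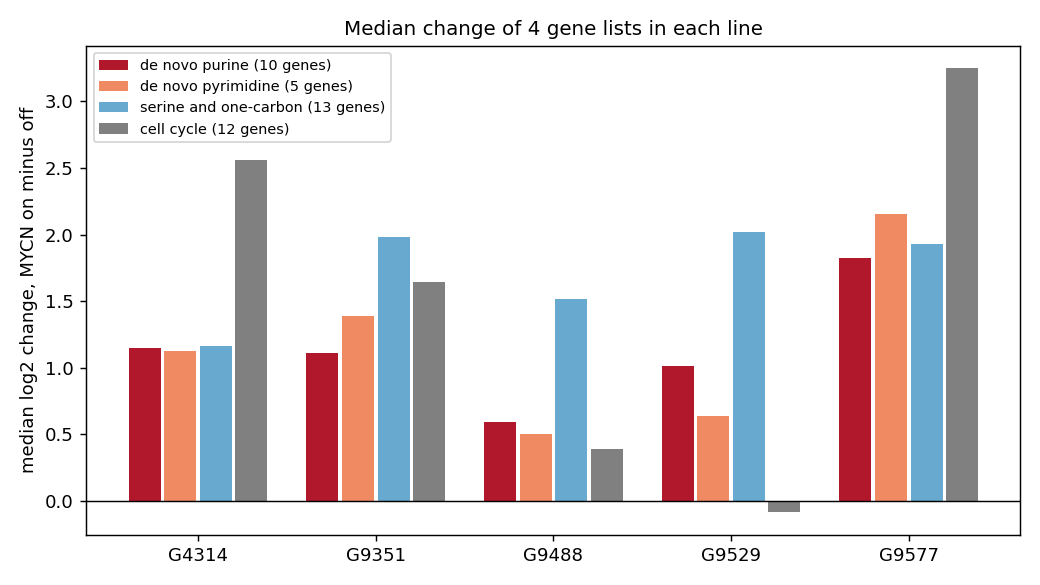
Median log2 change, MYCN on minus off (y axis), of 4 gene lists in each of the 5 lines (groups of bars). The de novo purine bar is above 0 in every line, from 0.59 in G9488 to 1.82 in G9577, and the cell cycle bar is at -0.09 in G9529.

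Further genes of purine synthesis moved in both directions: of 6 tested, 2 rose, 1 fell and 3 did not pass, with a median log2 change of 0.46. Impdh1, the other IMP dehydrogenase, stood at 148 ± 52.8 CPM in the MYCN-on libraries, against 58.7 ± 25.9 CPM in the MYCN-off libraries (SD over n = 5 lines) and rose 2.57-fold (log2 change 1.36, SE 0.31, adjusted p = 0.0185), with the call lost without G4314 (adjusted p = 0.056) and without G9529 (adjusted p = 0.0513). Impdh2 minus Impdh1 changes averaged log2 -0.38 ± 0.75 (SD, n = 5), positive in 1 of 5 lines, with p = 0.3125 in the exact sign-flip permutation test before and after adjustment over the 3 pairs, and the mean was -0.08 without G9577. Per kilobase Impdh1 had the higher counted level in every line with MYCN on, and Impdh2 the higher in G9577 with MYCN off. Of the 50-base words of Impdh2 39.3% also occur in another gene, against 0.0% of those of Impdh1. The order of the pair is therefore uncertain. Adss, the adenylosuccinate synthetase that opens the branch to AMP, rose 1.61-fold (log2 change 0.69, SE 0.13, adjusted p = 0.00998; 134 ± 64.6 CPM in the MYCN-on libraries, against 79.4 ± 21.9 CPM in the MYCN-off libraries (SD over n = 5 lines)). Its paralog Adssl1, best known from muscle, fell to 6.61 ± 3.92 CPM with MYCN on, against 14.8 ± 13.5 CPM with MYCN off (log2 change -1.04, SE 0.29, adjusted p = 0.035, SD over n = 5), and lost its call on leaving out any line but G9529 (adjusted p between 0.0546 and 0.104). Of the PRPP synthetase-associated proteins, Prpsap1 had a log2 change of 0.42 (adjusted p = 0.0655) and Prpsap2 one of 0.05 (adjusted p = 0.857). The fit without G9577 called Prpsap1 higher (adjusted p = 0.0122), and in G9577 itself its log2 change was -0.11. Prps1l1, a testis gene, was not tested, for low counts.

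Among 7 kinases that turn purine monophosphates into di- and triphosphates, 4 rose, 0 fell and 3 did not pass (median log2 1.33). Nme2 and Nme1, nucleoside diphosphate kinases, rose 3.60-fold and 3.499-fold, and the adenylate kinase Ak4 5.84-fold, while the guanylate kinase gene Guk1 had a log2 change of -0.02 (adjusted p = 0.976). The change of Ak4 ran from 2.76-fold in G9351 to 20.4-fold in G9488, where its count with MYCN off was 8. Of 8 salvage genes 4 rose, 0 fell and 4 did not pass (median log2 0.74; 1 was lower at an unadjusted p below 0.05, and DESeq2 called that 1, Dguok, lower). Mtap, which frees adenine from methylthioadenosine, rose 4.31-fold, the adenine phosphoribosyltransferase Aprt 2.01-fold and adenosine kinase, Adk, 1.86-fold. Hprt, which recovers hypoxanthine and guanine, rose 1.49-fold (adjusted p = 0.046) and lost its call under RLE scaling, library size alone and no filter, and on leaving out any line but G9577 (adjusted p between 0.0576 and 0.138). The changes of Dck (0.53), Ada (1.02), Pnp (-0.23) and Dguok (-0.50) on the log2 scale did not pass. Of 7 breakdown genes tested 1 rose, 2 fell and 4 did not pass (median log2 0.05). By DESeq2, 2 breakdown genes were called higher and 3 lower.

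Xdh, which oxidises hypoxanthine and xanthine to uric acid, was with MYCN on 12.9-fold lower (log2 change -3.69, SE 0.70, adjusted p = 0.0103). With MYCN off its level was 153 CPM in G9577 and at most 1.31 CPM in the other 4 lines, and without G9577 the gene had too few counts to be tested. Nt5e, the ecto-nucleotidase CD73, was 2.32-fold lower (log2 change -1.22, SE 0.29, adjusted p = 0.0201), a call lost without G4314, G9351 or G9488 (adjusted p = 0.0683, 0.0616 and 0.0826). Nt5c, a cytosolic nucleotidase, rose 1.48-fold (log2 change 0.56, SE 0.14, adjusted p = 0.0223), a call lost without G4314, G9351 or G9529 (adjusted p = 0.0803, 0.0574 and 0.076).

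**Figure D4:**
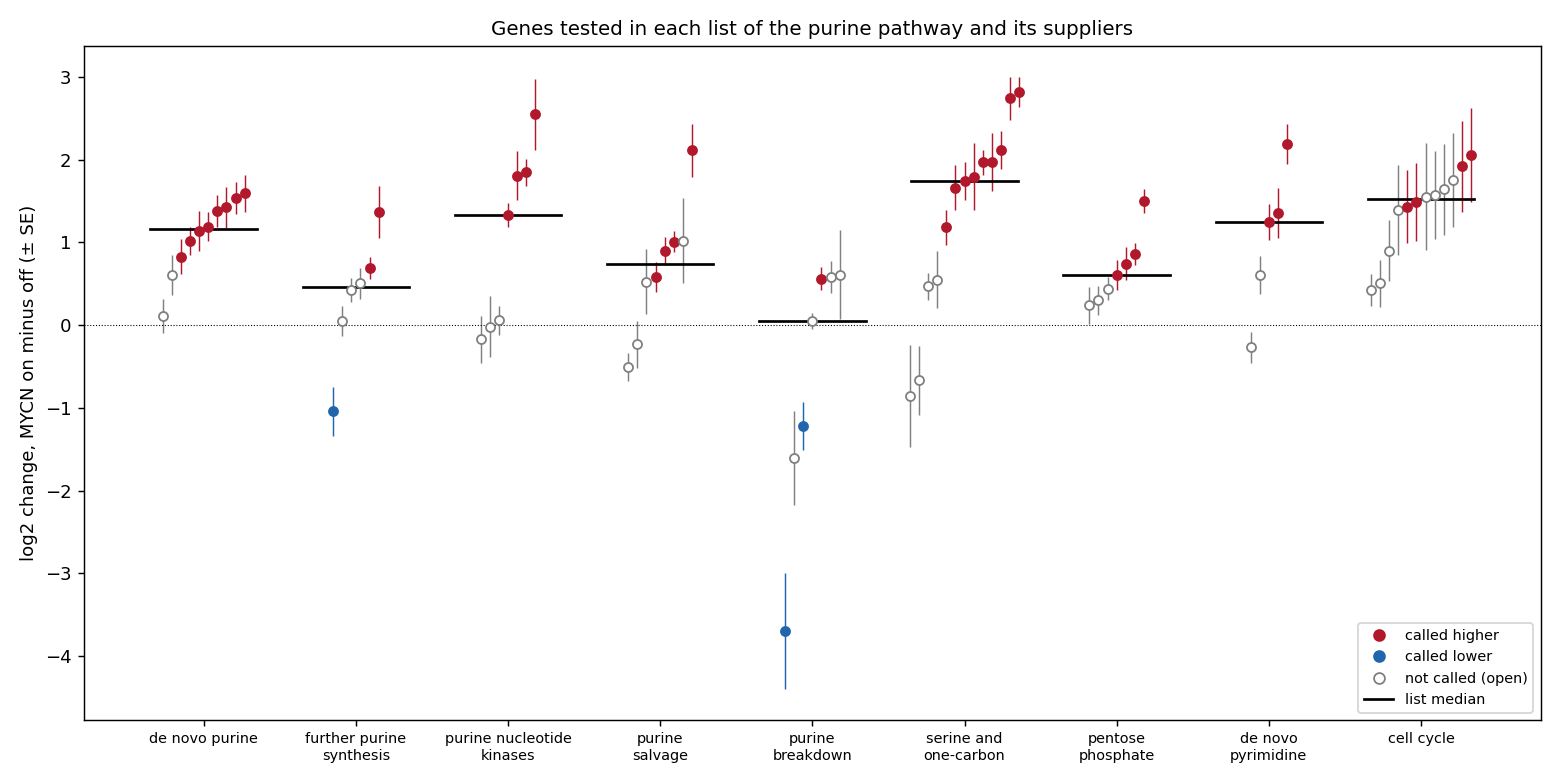
Fitted log2 change, MYCN on minus off, ± SE (y axis) of every gene tested in 9 lists (x axis), red where called higher, blue where called lower and open where not called, with black bars at list medians. In the de novo purine list 8 of 10 points are red and 0 are blue, and blue points are seen for Adssl1 among the further purine genes and for Xdh and Nt5e in breakdown.

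Genes that supply the ring atoms and ribose rose in part. Of 13 serine and one-carbon genes, 9 rose, 0 fell and 4 did not pass, with a median log2 change of 1.74. Psat1 and Phgdh, of serine synthesis, rose 7.03-fold and 6.69-fold, and the mitochondrial glycine and formate enzymes Shmt2 and Mthfd1l rose 4.34-fold and 3.91-fold. Of 7 pentose phosphate genes, 4 rose, 0 fell and 3 did not pass (median log2 0.61). Transketolase, Tkt, rose 2.83-fold and the lactonase Pgls 1.81-fold. The ribose 5-phosphate isomerase Rpia rose 1.67-fold and the first enzyme G6pdx 1.53-fold, but neither was called without G4314, G9351 or G9529 (adjusted p for Rpia 0.0963, 0.102 and 0.0839, for G6pdx 0.0918, 0.0559 and 0.122), and G6pdx not without G9488 (0.0992). Without G4314, G9351 or G9529 the pentose list had 2 calls.

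De novo pyrimidine synthesis, the sister route, had 3 of 5 genes called higher and 0 lower, with a median log2 change of 1.25 beside 1.16 for the purine set. Cad, which carries the opening activities, rose 4.56-fold (log2 change 2.19, SE 0.24, adjusted p = 0.00309), Umps 2.37-fold and Ctps 2.56-fold. Ctps lost its call without G4314 (adjusted p = 0.0689) and without G9351 (0.0601). The fitted changes of Dhodh (log2 0.61, adjusted p = 0.083) and Ctps2 (log2 -0.27, adjusted p = 0.296) did not pass. In the kinase, one-carbon, pentose and pyrimidine lists, 0 genes were lower at an unadjusted p below 0.05 in edgeR and 0 were called lower by DESeq2.

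Among the 10 genes, the profile over the 10 libraries of Pfas, Atic, Ppat and Adsl was closest to the mean of the other 9, with Pearson r of 0.967, 0.964, 0.957 and 0.953, while r was 0.635 for Paics and 0.0803 for Prps2. Outside the set, the 5 genes with the most similar profile to the mean of the 10 were Wdr12 (r = 0.993), a ribosome assembly factor, Cad (r = 0.992), the mitochondrial chaperonin Hspd1 (r = 0.990), the transcription factor subunit Taf4b (r = 0.988) and the DNA polymerase subunit Pold2 (r = 0.987), out of 11339 genes with a mean of at least 5 CPM. These are descriptions over 10 libraries that share the on and off states and the 5 lines. Wdr12 rose 3.47-fold, Hspd1 3.83-fold, Taf4b 5.27-fold and Pold2 2.23-fold, with adjusted p between 0.00309 and 0.0101.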

How the data were processed

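Libraries were prepared with NEBNext Ultra from TRIzol RNA after oligo-dT selection, per the labels' protocols. The submitters' processing notes name bcl2fastq 1.8.4, STAR 2.5.2a and the build mm9. Per the file headers, the authors deposited raw read counts per gene, made with featureCounts 1.6.0 on UCSC gene models without strand. No option for multi-mapping reads or overlapping genes is recorded, and reads of either kind were left out of the counts.

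Genes were filtered with filterByExpr (minimum count 10), which kept 12835 of 24391 genes, 93.9% to 99.9% of each library's counts, and all 10 members. Counts were TMM-scaled and tested with edgeR 4.0.16 (R 4.3.3; 4 residual degrees of freedom, biological coefficient of variation 28.5%). Every log2 change is on minus off, its SE is the change over the root of F, and changes of single lines use a prior count of 2. The procedure was tested on simulated counts of smaller spread than these data, and its error rates on these data were not measured. Libraries pair by line, per the labels: deviations of a line's on and off libraries from their group means correlated with r between 0.721 and 0.873, and at most 0.273 across lines. No libraries were identical, and their headers name 1 sequencing run, so no batch was modelled.

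The members, lists and tests were chosen with earlier results of these data known. The named genes are the 10 members, Mycn, Myc and Mycl, the further purine, salvage and pyrimidine genes, up to 4 called genes with the smallest p of each other list, and the 5 of most similar profile; other genes printed were chosen after their values were seen. Some genes that this rule or the lists name are not reported here. Myc fell 6.22-fold (adjusted p = 0.00339) and Mycl had a log2 change of 0.51 (adjusted p = 0.358). Alternatives were RLE scaling, library size alone, no filter, DESeq2 1.42.0, no line block, and each line left out. Words of 50 bases were matched in GENCODE M21 transcripts, and promoters come from RefSeq (GRCm38.p6).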

Additional observations from a re-analysis of the deposited data

Results flagged for a closer look

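The level of G9577 with MYCN on stood apart from the other 4 lines for 4 of the 10 genes, by the gap to the nearest line relative to the whole range over 5 lines (Dixon's criterion). Pfas was at 386 CPM there and at most 212 CPM in the others, Adsl at 296 against 146 CPM, Atic at 451 against 229 CPM and Gmps at 337 against 184 CPM. The log2 change of Adsl also stood apart in G9577, at 1.96 against at most 1.07. With MYCN off, Prps1 stood apart in G9488, at 62.6 CPM against at most 33.5 CPM. Chance flags about 1 in 20 such groups, and 33 were examined (levels in both states and changes of the 10 genes and Mycn). Lines moved in opposite directions for Prps2, with log2 changes of 0.70 in G9351 and 0.64 in G9577 and negative changes in the other 3 lines, and for Paics, with -0.41 in G9577 and positive changes in the other 4. These differences between lines were not tested, since each line has 1 library per state.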

How the results depend on the processing

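Of the 10 genes, 8 were called higher under RLE scaling, library size alone, no filter on low counts and DESeq2, and between 6 and 9 with a line left out. Without the replicate block, edgeR called 274 genes of all and 3 of the 10 (Gart, Pfas, Adsl, Impdh2 and Gmps missed the threshold, with adjusted p between 0.0515 and 0.182), 2 kinase, 5 one-carbon, 1 pentose and 1 pyrimidine gene higher, and 0 genes of further purine synthesis, salvage, breakdown or the cell cycle in either direction. DESeq2 called 10 cell cycle genes higher, 2 breakdown genes higher and 3 lower, and 1 salvage gene lower. RLE scaling called 1 salvage gene lower, and no filter 7 cell cycle genes higher. Leaving out a line gave between 1729 and 4493 calls over all genes, 1 to 3 further purine genes higher and 0 to 1 lower, 0 to 1 breakdown genes higher and 1 to 2 lower, 2 to 4 pentose genes and 0 to 8 cell cycle genes. The log2 change of Prps2 ran from -0.054 to 0.21 with a line left out and was below 0 without G9351 (-0.054) and without G9577 (-0.02). Of the 10 alternatives, Paics passed in 1, without G9577. The 8 called members kept their direction under all 10 alternatives. The cause of these differences was not tested. RLE scaling moved the median log2 change of all genes to -0.12 and no filter to -0.24, beside -0.08. With RLE scaling 43.5% of calls were higher, with DESeq2 43.2% and without the block 78.5%, beside 49.6% in the test reported. Reads that map to several places were not counted, and how many were lost for each gene was not measured.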
